A study of Mus musculus with 6 samples.

Results

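The genes described here carry ion channel names, and all but Pkdcc and Trpc5os encode channels or their accessory subunits. They were taken by name: every row of the deposited table whose symbol begins with Kcn, Cacn, Clcn, P2rx, Hcn, Trpc, Trpm, Trpv, Pkd or Piezo, or with Scn or Ano followed by a digit. The rule found 45 of the 3257 usable genes in the table. RefSeq annotates 202 mouse genes with such names, and those outside the table were not analysed here. RNA was sequenced from primary Sertoli cells, which nurse the germ cells inside the testis tubules, isolated from C57BL/6 mice and enriched by differential plating for 24 h. The 3 UXT KO libraries came from cells of UXT KO animals given a virus that carried CRE recombinase, and the 3 wild-type libraries from cells given an empty plasmid. Cells of both groups were infected in 2 rounds of 24 h. UXT (ART-27) belongs to the prefoldin family and binds the androgen receptor. CRE was given to knockout cells alone, so its effect and that of UXT loss cannot be told apart, and no label says whether a group's libraries stem from different animals or cultures, so the p-values may measure technical spread.

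Ion channels are membrane pores that open to voltage, ligands, calcium or stretch and let potassium, sodium, calcium or chloride flow down its gradient. Potassium channels hold the resting potential of a cell. Calcium channels turn changes of potential into calcium signals, and chloride channels help to move salt and water. Sertoli cells secrete the fluid of the tubule, and calcium and chloride currents are known in them.

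The table held only genes that the authors' own test on these same libraries had called at 1.5-fold or more, so that all 45 had to differ and their calls are a description. Of the 45 genes, 35 were lower and 10 higher in UXT KO cells in the authors' deposited table. The lower genes included the voltage-gated potassium channel gene Kcna5, the inward rectifier genes Kcnj2 and Kcnj8, and both T-type calcium channel genes in the table. The higher genes included the leak potassium channel genes Kcnk10 and Kcnk5, the silent subunit gene Kcnf1, the cation channel gene Trpc6 and the stretch-gated channel gene Piezo2. By limma's moderated test on the log2 value of each library, 34 of the 45 genes (75.6%) were called lower, against 67.5% of all genes in the table. The same test called 10 of the 45 (22.2%) higher, against 32.1% of all genes. A call needed a limma adjusted p under 0.05. The groups did not overlap in any of the 45 genes, whose 3 UXT KO values were all on the same side of the 3 wild-type values, against 97.5% of all genes in the table.

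The median fold of the lower genes was 2.44 for the channels and 2.33 for the whole table, both from the authors' deposited table. The median fold of the higher genes was 2.59 for the channels and 1.75 for the whole table, also from the authors' deposited table. A fall of at least 4-fold was listed for 9 channel genes (20%) and for 440 genes of the table (13.5%) in the authors' deposited table. A rise of at least 4-fold was listed there for 2 channel genes and 25 genes of the authors' deposited table in all. These medians and shares are descriptions, with no test of the list. The channels had lower log2 values than the table (median of the mean values 6.45 against 9.06). The 18 channels with a mean log2 value under 6 had folds of at least 2.05, while the smallest fold of any channel was 1.56. The part of this lower level in the larger folds was not tested. These figures therefore cannot show whether channels changed more than other genes of like level.

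**Figure D1:**
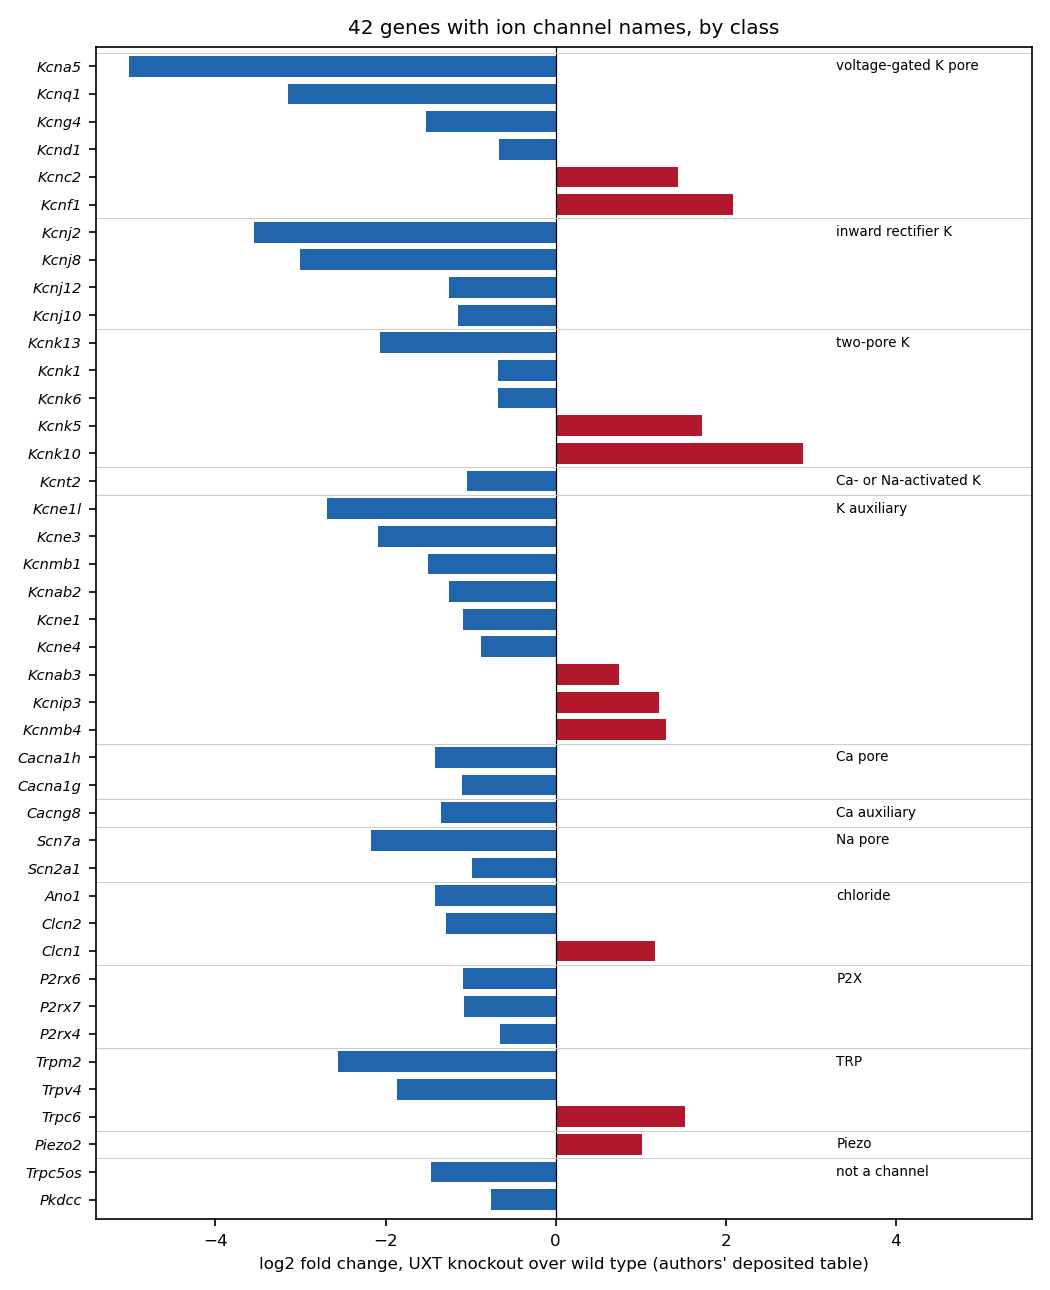
Log2 fold change of 42 of the 45 genes, UXT KO over wild-type cells, from the authors' deposited table, grouped by channel class. Red bars to the right are the 10 higher genes and blue bars to the left 32 of the lower genes, with Kcna5 the longest.

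The values of the libraries are on a log2 scale and compress the differences between the groups, most strongly those of genes with low log2 values. The median of the mean log2 values was 6.45 for the channels and 9.06 for the table, on a scale with no stated correction for gene length. The median ratio of the difference in library values to the log2 fold change of the authors' deposited table was 0.354 for the channels and 0.58 for the table. That ratio ran from 0.0947 in Clcn1 to 0.697 in Kcne4. The fold sizes below are therefore those of the authors' deposited table, and the library values give the spread, the test and the direction. Since no correction for gene length is stated, levels of single genes are not set against each other.

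**Figure D2:**
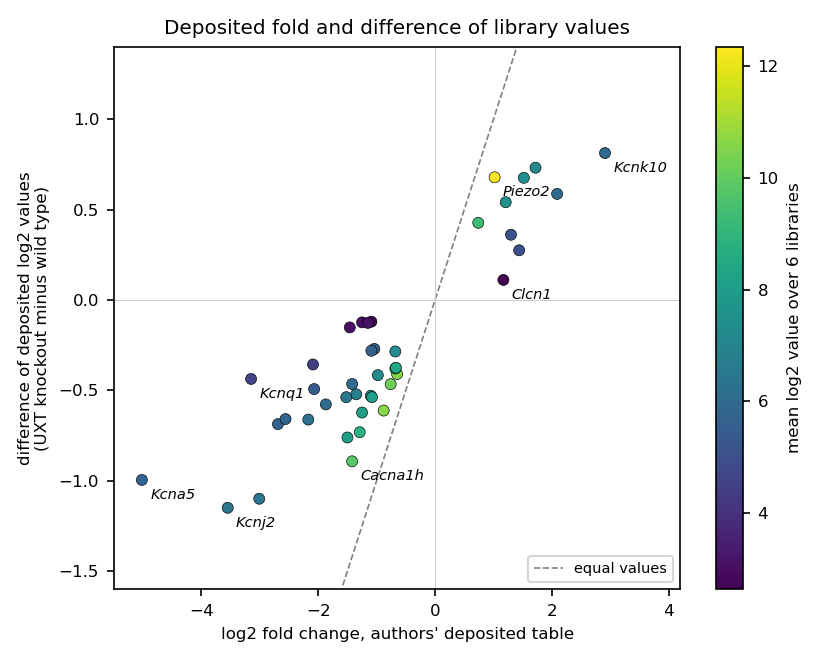
Difference of the deposited log2 values (UXT KO minus wild type, vertical) against the log2 fold change that the authors' deposited table gives (horizontal), 1 point for each of 42 genes, coloured by mean log2 value. Points lie between the dashed line of equal values and the zero line, and dark points of low mean value, such as Clcn1, lie nearest to zero.

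The direction of the smaller falls depended on the scaling between libraries. The median log2 value over the table was between 8.82 and 8.91 in UXT KO libraries and between 9.15 and 9.18 in wild-type libraries. Quantile normalization over the genes of the table raised the median difference of all genes by 0.33 on the log2 scale. Centring each library on its median raised it by 0.30. Both scalings move differences up by construction, so that higher genes tend to stay higher and lower genes to weaken. All 10 higher genes were called higher under both scalings, which is therefore no separate test of them. Of the lower genes, 8 were called lower under both: Kcna5, Kcnj2, Kcnj8, Kcne1l, Trpm2, Kcnmb1, Cacna1h and Clcn2. In 10 lower genes the sign turned under at least 1 of these scalings, and those reported below are named as such. Median centring adds the same amount, about 0.30, to every difference, so that smaller falls turned by construction. A turned sign is therefore no separate test of direction either.

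**Figure D3:**
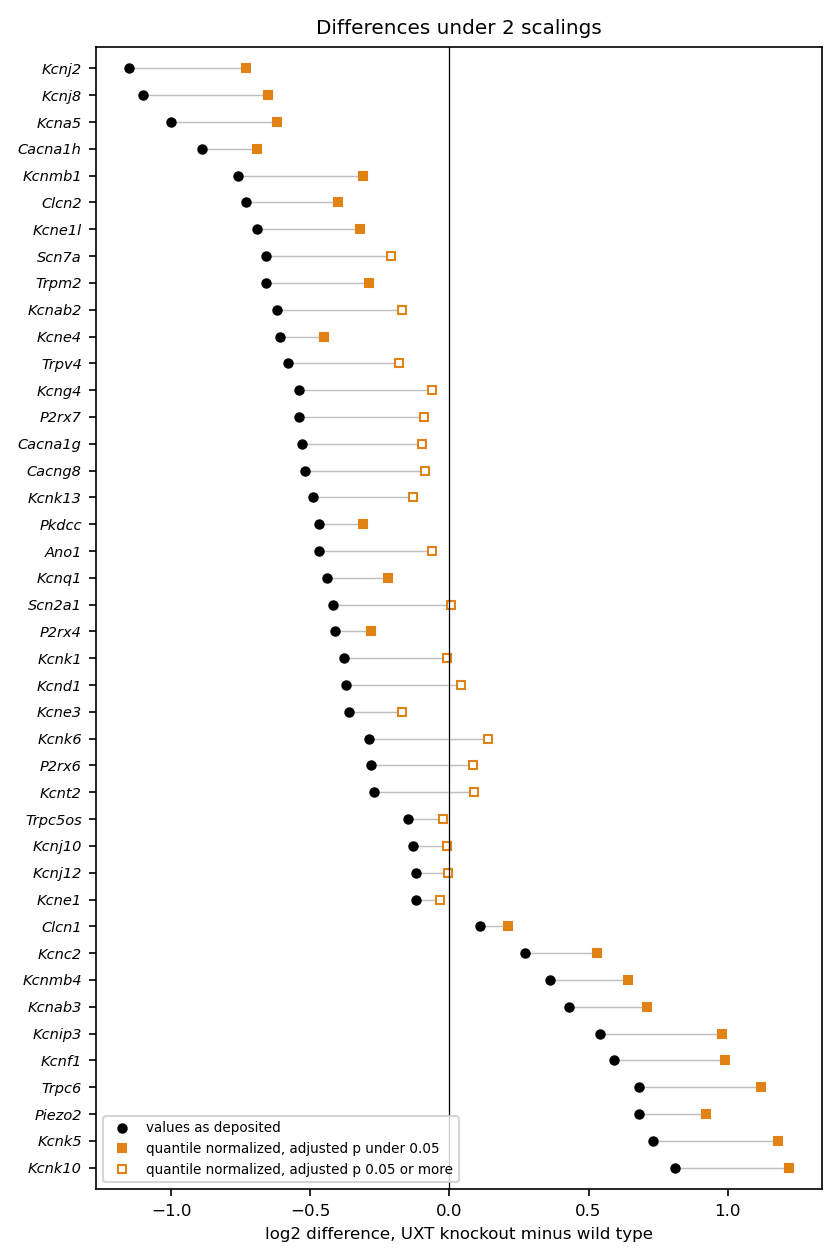
Difference of log2 values, UXT KO minus wild type, for each of 42 genes, as deposited (black circles) and after quantile normalization over the table (orange squares, filled where the limma adjusted p was under 0.05). Every square lies to the right of its circle; the 10 higher genes stay filled on the right, and several squares of lower genes cross the zero line.

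The sequences before the start sites of the 2 genes with the largest fall and the 2 with the largest rise are shown, since these 4 genes mark the ends of the range. They are the 250 bases before the start tabulated by RefSeq (GRCm38.p6, the assembly that mm10 names), 5′ to 3′ on the gene's strand. The windows are chr6:126535556-126535805 on the minus strand for Kcna5, chr11:111065914-111066163 on the plus strand for Kcnj2, chr12:98578214-98578463 on the minus strand for Kcnk10 and chr12:17176889-17177138 on the minus strand for Kcnf1. Capitals mark exact matches, on either strand, to the GC box GGGCGG, the E-box CACGTG, the TATA box TATAAA and the androgen receptor half-site AGAACA.
Kcna5: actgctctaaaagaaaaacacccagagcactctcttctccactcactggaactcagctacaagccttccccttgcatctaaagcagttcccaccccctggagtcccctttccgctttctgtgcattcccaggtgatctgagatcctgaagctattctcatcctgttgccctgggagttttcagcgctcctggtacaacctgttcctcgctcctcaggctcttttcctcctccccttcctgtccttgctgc
Kcnj2: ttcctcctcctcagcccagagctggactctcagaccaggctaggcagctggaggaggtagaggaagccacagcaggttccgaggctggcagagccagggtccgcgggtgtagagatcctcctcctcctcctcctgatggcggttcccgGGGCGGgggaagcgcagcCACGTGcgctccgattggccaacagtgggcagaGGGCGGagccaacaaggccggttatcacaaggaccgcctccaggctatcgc
Kcnk10: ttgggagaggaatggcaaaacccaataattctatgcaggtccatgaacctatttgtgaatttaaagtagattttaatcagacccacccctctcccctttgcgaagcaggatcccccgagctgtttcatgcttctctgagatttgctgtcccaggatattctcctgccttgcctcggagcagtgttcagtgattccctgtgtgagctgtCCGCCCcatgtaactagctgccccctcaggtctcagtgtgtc
Kcnf1: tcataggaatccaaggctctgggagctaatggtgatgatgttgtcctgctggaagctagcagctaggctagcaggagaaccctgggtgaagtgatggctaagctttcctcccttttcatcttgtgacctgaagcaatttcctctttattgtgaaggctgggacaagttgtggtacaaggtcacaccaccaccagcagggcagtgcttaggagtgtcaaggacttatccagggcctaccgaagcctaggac

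The window of Kcnj2 held GC boxes that begin 102 and 51 bases before the start and an E-box that begins 84 bases before it. The window of Kcnk10 held a GC box that begins 42 bases before the start, and the windows of Kcna5 and Kcnf1 held none of these letters. Promoters of 34 of the 45 genes were in the RefSeq table, each searched from 250 bases before to 50 after its first listed start. The GC box was in 17 of these 34 windows (50%) and in 35.9% of all 27025 windows. The androgen receptor half-site was in 4 of the 34 (11.8%) and in 19% of all windows. Of the 4, 3 belonged to the 8 higher genes and 1 to the 26 lower genes with a window. The GC box was in 4 of these 8 and 13 of these 26, and the E-box and the TATA box each in 1 and 2. No split by direction was made over the whole table, so these counts are descriptions only. The E-box was in 3 of the 34 (8.82%) against 7.24% of all windows, and the TATA box in 3 (8.82%) against 14.2%. The median GC content of the 250 bases before the start was 56.2% in the 34 and 52% over all windows. Its part in these shares was not tested. A match of letters is not a bound site.

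Voltage-gated potassium channel pores repolarise cells after depolarisation, and of the 7 listed, 5 fell and 2 rose. Kcna5, which encodes the delayed rectifier Kv1.5 of heart, vessels and macrophages, had log2 values of 5.21, 5.21 and 5.20 in UXT KO cells, against 6.24, 6.14 and 6.24 in wild-type cells. The groups lay a full log2 unit apart with little spread in either. Kcna5 fell 32.4-fold per the authors' deposited table, with a limma difference of -0.996 ± 0.07 (SE, adjusted p = 7.19e-06). Its gene (ID 16493) lies on chromosome 6, from 126532551 to 126535555 in GRCm38.

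Kcnq1, the pore that joins with KCNE subunits in heart and epithelia, had log2 values of 4.37, 4.4 and 4.37 in UXT KO cells, against 4.92, 4.80 and 4.72 in wild-type cells. All 3 knockout libraries lay lower, with low log2 values in both groups. Kcnq1 fell 8.90-fold per the authors' deposited table (limma difference -0.44 ± 0.06, SE, adjusted p = 2.41e-04). After centring each library on its median the limma adjusted p was 0.0931, and after quantile normalization it was 0.00981. An exon of the antisense RNA gene Kcnq1ot1 overlaps an exon of Kcnq1 by 121 bases, which matters if strand was ignored in counting, so the value of Kcnq1 is uncertain.

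The gene Kcnf1 encodes Kv5.1, which forms no channel alone and joins with other subunits. It had log2 values of 6.19, 6.25 and 6.41 in UXT KO cells, against 5.72, 5.70 and 5.66 in wild-type cells. Kcnf1 rose 4.26-fold per the authors' deposited table (limma difference 0.59 ± 0.08, SE, adjusted p = 2.40e-04). Kcng4, which encodes another silent subunit, fell 2.87-fold per the authors' deposited table. The silent subunits thus stood on opposite sides, Kcnf1 higher and Kcng4 lower. Kcng4 was no longer called under either scaling (differences -0.063 and -0.24).

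Kcnc2, which encodes Kv3.2 of fast-firing neurons, had log2 values of 5.10, 4.94 and 5.13 in UXT KO cells, against 4.77, 4.83 and 4.75 in wild-type cells. Kcnc2 rose 2.71-fold per the authors' deposited table (limma difference 0.27 ± 0.07, SE, adjusted p = 0.0043). Kcnd1, which encodes the A-type channel Kv4.1, was lower by 1.59-fold per the authors' deposited table, and its difference turned from -0.37 to 0.041 after quantile normalization.

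**Figure D4:**
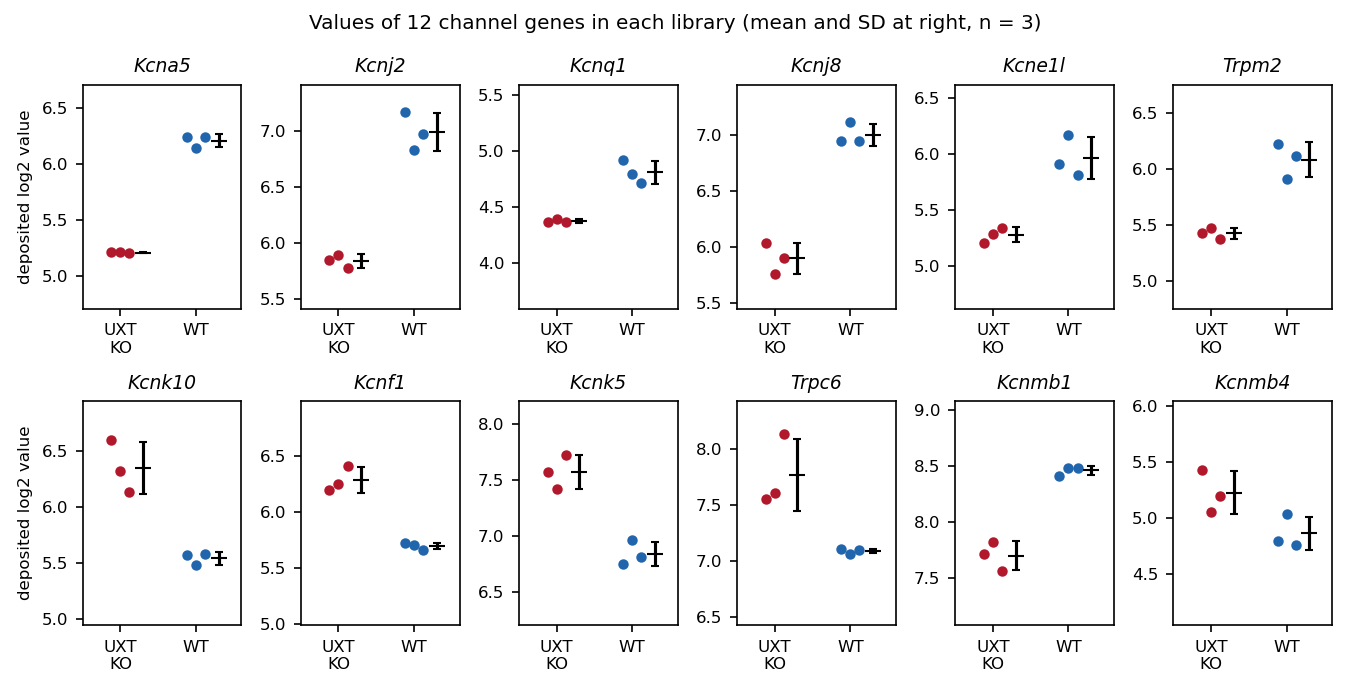
Deposited log2 values of 12 channel genes in each library (points), UXT KO in red on the left and wild type in blue on the right of each panel, with the mean and SD (n = 3) beside them. All panels span 2 log2 units. The groups separate in every panel, most narrowly in Kcnmb4, and 1 UXT KO library of Trpc6 stands above the other 2.

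Inward rectifier potassium channels hold the membrane near its resting potential, and all 4 of this class in the table were lower in UXT KO cells. Kcnj2, which encodes Kir2.1, had log2 values of 5.85, 5.90 and 5.78 in UXT KO cells, against 7.17, 6.83 and 6.98 in wild-type cells. The lowest wild-type value was well above the highest knockout value. Kcnj2 fell 11.7-fold per the authors' deposited table (limma difference -1.15 ± 0.10, SE, adjusted p = 2.24e-05).

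Kcnj8 encodes Kir6.1, the pore of the ATP-sensitive potassium channel of pericytes and vascular smooth muscle. It had log2 values of 6.04, 5.76 and 5.91 in UXT KO cells, against 6.95, 7.12 and 6.95 in wild-type cells. Kcnj8 fell 8.06-fold per the authors' deposited table (limma difference -1.10 ± 0.10, SE, adjusted p = 2.37e-05). Abcc9, which encodes the sulfonylurea receptor that pairs with Kir6.1 and whose gene lies 16248 bases from Kcnj8 on chromosome 6, fell 4.22-fold per the authors' deposited table. Abcc9 averaged 5.90 ± 0.02 in UXT KO and 6.54 ± 0.19 in wild-type cells (log2 values, SD, n = 3 each; limma adjusted p = 4.45e-04). The pore and its receptor subunit were thus both lower. Kcnj8 and Abcc9 also stand on the pericyte marker list. Of its 8 genes in the table, 7 were lower and 1, Cspg4, higher, beside 67.5% of all genes called lower.

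The remaining inward rectifier genes, Kcnj10 and Kcnj12, were listed 2.21-fold and 2.37-fold lower in the authors' deposited table, at log2 values of 2.97 to 3.03 in UXT KO cells and 3.05 to 3.22 in wild-type cells. Their differences, -0.13 and -0.12, turned to 0.17 in both after median centring.

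Two-pore potassium channels carry the leak current, and in this class 2 genes rose and 3 fell. Kcnk10, which encodes TREK-2, a channel opened by stretch, heat and fatty acids, had log2 values of 6.60, 6.32 and 6.14 in UXT KO cells, against 5.57, 5.48 and 5.58 in wild-type cells. Its knockout libraries differed among themselves more than its wild-type libraries. Kcnk10 rose 7.50-fold per the authors' deposited table, the largest rise among the 45 genes (limma difference 0.81 ± 0.11, SE, adjusted p = 2.27e-04). Kcnk5, which encodes the alkaline-activated channel TASK-2, had log2 values of 7.57, 7.42 and 7.72 in UXT KO cells, against 6.75, 6.96 and 6.81 in wild-type cells. Kcnk5 rose 3.3-fold per the authors' deposited table (limma difference 0.73 ± 0.11, SE, adjusted p = 3.01e-04).

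Kcnk13, which encodes THIK-1, a channel of microglia, fell 4.19-fold per the authors' deposited table. Kcnk1, which encodes TWIK-1, and Kcnk6, which encodes TWIK-2, fell 1.61-fold and 1.6-fold per the authors' deposited table. Kcnk6 turned from -0.29 to 0.14 after quantile normalization and to 0.01 after median centring, and Kcnk1 and Kcnk13 were not called under either scaling. Kcnt2, which encodes the sodium-activated channel Slick, had log2 values of 5.50, 5.31 and 5.28 in UXT KO cells, against 5.69, 5.67 and 5.55 in wild-type cells. Kcnt2 was 2.05-fold lower in the authors' deposited table (limma difference -0.27 ± 0.08, SE, adjusted p = 0.0106), and turned to 0.09 after quantile normalization and 0.024 after median centring.

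Accessory subunits set the gating of potassium channels, and of the 9 listed, 5 fell, 3 rose and 1, Kcne1, did not pass. The β subunits of the large-conductance calcium-activated (BK) channel went opposite ways. Kcnmb1, which encodes the β1 subunit of smooth muscle, had log2 values of 7.71, 7.82 and 7.56 in UXT KO cells, against 8.41, 8.48 and 8.48 in wild-type cells. Kcnmb1 fell 2.83-fold per the authors' deposited table (limma difference -0.76 ± 0.10, SE, adjusted p = 1.50e-04). Kcnmb4, which encodes the β4 subunit of neurons, had log2 values of 5.43, 5.05 and 5.19 in UXT KO cells, against 4.79, 5.03 and 4.76 in wild-type cells. The groups almost met, at 5.05 in UXT KO replicate 2 and 5.03 in wild-type replicate 2. Kcnmb4 rose 2.46-fold per the authors' deposited table (limma difference 0.36 ± 0.11, SE, adjusted p = 0.00997). The antisense genes Kcnmb4os1 and Kcnmb4os2 overlap its exons by up to 355 and 693 bases, so the value of Kcnmb4 is uncertain if strand was ignored in counting. The pore gene Kcnma1 was not analysed here.

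KCNE proteins are single-span subunits that bind Kv channels. Kcne1l, also known as Kcne5 and called a pseudogene in the table's description but protein-coding by RefSeq, had log2 values of 5.21, 5.29 and 5.34 in UXT KO cells, against 5.91, 6.17 and 5.81 in wild-type cells. Kcne1l fell 6.45-fold per the authors' deposited table (limma difference -0.69 ± 0.10, SE, adjusted p = 2.84e-04). Kcne3 fell 4.26-fold and Kcne4 fell 1.84-fold per the authors' deposited table. The limma adjusted p of Kcne3 was 0.138 after quantile normalization and 0.591 after median centring. For Kcne4 it was 0.0392 and 0.136. Kcne1 had log2 values of 2.58, 2.58 and 2.57 in UXT KO cells, against 2.60, 2.62 and 2.86 in wild-type cells. Only wild-type replicate 3 stood clear of the others, and the gene was not called (limma difference -0.12 ± 0.06, SE, adjusted p = 0.0769; 2.12-fold lower in the authors' deposited table). Without wild-type replicate 1 or 2 its adjusted p was 0.0233 or 0.0426, and the sign turned to 0.18 after median centring.

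The cytoplasmic β subunit genes Kcnab2 and Kcnab3 also went opposite ways: Kcnab2 fell 2.38-fold and Kcnab3 rose 1.67-fold per the authors' deposited table. Kcnab2 averaged 7.76 ± 0.07 in UXT KO and 8.38 ± 0.07 in wild-type cells, and Kcnab3 averaged 9.53 ± 0.04 in UXT KO and 9.10 ± 0.07 in wild-type cells (log2 values, SD, n = 3 each). The fall of Kcnab2 did not pass after quantile normalization (limma adjusted p = 0.125) but passed after median centring (0.0122). Kcnip3, which encodes calsenilin, a calcium-binding partner of Kv4 channels, rose 2.32-fold per the authors' deposited table, with log2 values of 7.78 ± 0.14 in UXT KO and 7.24 ± 0.06 in wild-type cells (SD, n = 3 each).

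Voltage-gated calcium channels were represented in the table by the T-type pore genes Cacna1h and Cacna1g and the accessory gene Cacng8, all lower. Cacna1h, which encodes Cav3.2, had log2 values of 9.34, 9.61 and 9.15 in UXT KO cells, against 10.25, 10.39 and 10.12 in wild-type cells. The groups were separated by more than the spread of either. Cacna1h fell 2.68-fold per the authors' deposited table (limma difference -0.89 ± 0.13, SE, adjusted p = 2.28e-04). Cacna1g, which encodes Cav3.1, fell 2.15-fold per the authors' deposited table, and its adjusted p was 0.541 after quantile normalization.

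Cacng8, known best as an accessory subunit of AMPA receptors, had log2 values of 6.53, 6.48 and 6.69 in UXT KO cells, against 7.03, 6.99 and 7.25 in wild-type cells. Cacng8 fell 2.55-fold per the authors' deposited table (limma difference -0.52 ± 0.10, SE, adjusted p = 0.00131), with an adjusted p of 0.518 after quantile normalization. Of the 202 annotated genes, 10 encode calcium channel pores and 16 their accessory subunits, so most of both were outside the table.

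Sodium channel pore genes in the table were Scn7a and Scn2a1, both lower. Scn7a, which encodes Nax, a channel gated by the sodium concentration and not by voltage, had log2 values of 5.87, 5.91 and 5.86 in UXT KO cells, against 6.66, 6.41 and 6.57 in wild-type cells. Scn7a fell 4.49-fold per the authors' deposited table (limma difference -0.66 ± 0.09, SE, adjusted p = 1.70e-04). Scn2a1, which encodes the neuronal channel Nav1.2, was 1.97-fold lower in the authors' deposited table, and its difference of -0.42 turned to 0.0044 after quantile normalization. The limma adjusted p of Scn7a was 0.0666 after quantile normalization and 0.0055 after median centring, where it stayed called lower.

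Chloride channel genes went both ways. Ano1, which encodes the calcium-activated chloride channel TMEM16A, had log2 values of 5.66, 5.88 and 5.94 in UXT KO cells, against 6.20, 6.44 and 6.23 in wild-type cells. Ano1 fell 2.67-fold per the authors' deposited table (limma difference -0.47 ± 0.10, SE, adjusted p = 0.00222), and its adjusted p was 0.589 after quantile normalization. Clcn2, which encodes the inward-rectifying channel ClC-2 whose loss in mice leads to degeneration of the testis, fell 2.44-fold per the authors' deposited table. Clcn2 averaged 8.50 ± 0.16 in UXT KO and 9.23 ± 0.03 in wild-type cells (log2 values, SD, n = 3 each). Exons of Fam131a and Polr2h on the opposite strand overlap Clcn2 by 85 and 82 bases, so its value carries the same uncertainty. Antisense genes likewise overlap exons of Kcnk1 (179 bases), Kcnt2 (102), Kcnab3 (57) and Kcne3 (9). Genes on the same strand overlap Kcnab2 (125 bases), P2rx7 (119), Cacng8 (91) and Trpm2 (44 and 47), and counting by strand would not separate these.

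Clcn1, the skeletal muscle chloride channel gene, was 2.25-fold higher in the authors' deposited table with log2 values of 2.75, 2.75 and 2.62 in UXT KO cells, against 2.60, 2.60 and 2.60 in wild-type cells. The third UXT KO library was thus close to the wild-type libraries. The limma adjusted p of Clcn1 was 0.0202, and it was 0.0993 without UXT KO replicate 1 and 0.0972 without UXT KO replicate 2. An exon of Fam131b overlaps Clcn1 by 445 bases on the opposite strand, with the same uncertainty.

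P2X receptors are cation channels opened by extracellular ATP, and the 3 genes in the table were lower. P2rx6 had log2 values of 5.50, 5.61 and 5.52 in UXT KO cells, against 5.85, 5.76 and 5.85 in wild-type cells. P2rx6 was 2.13-fold lower in the authors' deposited table (limma difference -0.28 ± 0.07, SE, adjusted p = 0.00462), and turned to 0.085 after quantile normalization and 0.015 after median centring. An exon of Slc7a4 on the opposite strand overlaps P2rx6 by 200 bases, and one of Tpsg1 overlaps the calcium channel gene Cacna1h by 158 bases. P2rx7, the ATP receptor of macrophages, fell 2.11-fold and P2rx4 fell 1.56-fold per the authors' deposited table. P2rx7 and P2rx4 lie 15182 bases apart on chromosome 5. Their adjusted p-values after quantile normalization were 0.468 for P2rx7 and 0.0184 for P2rx4, whose fall missed the threshold after median centring (adjusted p = 0.27).

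Transient receptor potential (TRP) channels pass calcium and sodium in response to chemical and physical stimuli, and 2 of the 3 in the table fell and 1 rose. Trpm2, which is opened by ADP-ribose in oxidative stress and is known in phagocytes, had log2 values of 5.42, 5.47 and 5.37 in UXT KO cells, against 6.22, 5.91 and 6.11 in wild-type cells. Trpm2 fell 5.91-fold per the authors' deposited table (limma difference -0.66 ± 0.09, SE, adjusted p = 2.24e-04). Trpv4, which responds to swelling and warmth, fell 3.65-fold per the authors' deposited table, with an adjusted p of 0.176 after quantile normalization. Trpc6, which is opened by diacylglycerol, had log2 values of 7.56, 7.61 and 8.14 in UXT KO cells, against 7.11, 7.07 and 7.10 in wild-type cells. UXT KO replicate 3 stood above the other knockout libraries, and all 3 lay above wild type. Trpc6 rose 2.86-fold per the authors' deposited table (limma difference 0.68 ± 0.15, SE, adjusted p = 0.00217).

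Piezo2, a channel opened by stretch of the membrane and known from touch-sensing neurons, had log2 values of 12.67, 12.63 and 12.73 in UXT KO cells, against 11.79, 12.08 and 12.13 in wild-type cells. Wild-type replicate 1 was the lowest, and the groups did not overlap. Piezo2 rose 2.02-fold per the authors' deposited table (limma difference 0.68 ± 0.10, SE, adjusted p = 2.68e-04). Genes of the HCN pacemaker channels and of the polycystins were among the 202 annotated names, and none was in the table.

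The name rule also caught 2 genes that encode no channel. Pkdcc, a secreted protein kinase gene, fell 1.69-fold per the authors' deposited table. Its limma adjusted p was 0.00884 after quantile normalization and 0.0958 after median centring. Trpc5os, named for its place opposite Trpc5, had log2 values of 2.96, 2.96 and 2.97 in UXT KO cells, against 3.28, 3.02 and 3.06 in wild-type cells. Trpc5os was 2.75-fold lower in the authors' deposited table (limma difference -0.15 ± 0.06, SE, adjusted p = 0.0335). It missed the threshold when any 1 UXT KO library was left out, with adjusted p-values of 0.0784, 0.0791 and 0.0762, and turned to 0.14 after median centring.

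Other genes of ion transport were read from fixed lists. Their counts stand beside 67.5% of all genes in the table called lower and 32.1% called higher as deposited. After quantile normalization 52.1% of the calls over the whole table were lower. Of 123 genes on a list drawn up for pores outside the name rule, 18 were in the table, of which 16 fell and 2 rose. Their median log2 fold change was -1.04, beside -0.88 for the whole of the authors' deposited table. Clca2, on that list although it encodes a calcium-activated chloride channel regulator and not a pore, fell 21.2-fold per the authors' deposited table. The acid-sensing channel gene Asic2 fell 6.5-fold and the water channel gene Aqp5 5.77-fold per the authors' deposited table. The glutamate receptor gene Grik2 rose 4.17-fold per the authors' deposited table. After quantile normalization 8 of the 18 were called lower and 2 higher.

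Of 37 ion pumps and exchangers, 10 were in the table and all 10 fell, with 5 called lower after quantile normalization. The sodium pump β subunit genes Atp1b2 and Atp1b1 fell 12.9-fold and 5.82-fold, and the sodium-proton exchanger gene Slc9a2 fell 4.34-fold per the authors' deposited table. Atp1b1 averaged 9.37 ± 0.38 in UXT KO and 11.28 ± 0.12 in wild-type cells (log2 values, SD, n = 3 each; limma adjusted p = 2.09e-05).

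Of 56 channel regulators, 13 were in the table, with 10 lower and 3 higher. Besides Abcc9, the anchoring protein gene Akap5 fell 5.81-fold and the sodium pump regulator gene Fxyd1 fell 3.99-fold per the authors' deposited table. The 3 that rose were Rrad (1.92-fold), Gem (1.62-fold) and Nkain1 (1.56-fold) in the authors' deposited table. Rrad and Gem encode small GTPases that inhibit voltage-gated calcium channels. After quantile normalization 5 of the 13 were called lower and 3 higher.

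Of 35 calcium-binding and calcium-response genes, 6 were in the table, with 4 lower and 2 higher, against 3 lower and 2 higher after quantile normalization. The calsequestrin gene Casq2 fell 3.94-fold, Nfatc2 fell 2.79-fold and the calcineurin regulator gene Rcan2 fell 2.48-fold per the authors' deposited table. The kinase gene Camk2b rose 2.45-fold and the calcium sensor gene Ncs1 rose 1.91-fold per the authors' deposited table.

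Several of these channels are known from other cell types, and markers of those types moved in the same libraries. Their counts also stand beside 67.5% of all genes in the table called lower as deposited. After quantile normalization 52.1% of the calls over the whole table were lower. All 22 macrophage markers in the table, of 24, were lower (20 after quantile normalization). Their summed level (log2 of the summed unlogged values) was 13.69 to 13.93 in UXT KO and 15.16 to 15.51 in wild-type libraries. Such a sum rests mostly on the genes with the highest values, for which no correction for gene length is stated. All 23 endothelial markers in the table, of 28, were lower (21 after quantile normalization), at 13.52 to 13.71 in UXT KO and 14.33 to 14.45 in wild-type libraries. Eng had the highest values in that sum, averaging 12.33 in UXT KO and 12.91 in wild-type cells. The median deviation of the endothelial markers from their wild-type means was -1.32 ± 0.07 in UXT KO libraries (mean and SD, n = 3). For the macrophage markers it was -1.37 ± 0.17, so these lists lay close by that measure. All 14 smooth muscle and myoid markers in the table, of 20, were lower, but 8 after quantile normalization and 10 after median centring, at 18.90 to 19.06 in UXT KO and 19.35 to 19.65 in wild-type libraries. Of 15 pericyte markers 8 were in the table, with 5 lower and 1 higher after quantile normalization. They summed to 14.15 to 14.60 in UXT KO and 14.59 to 14.69 in wild-type libraries. Within that sum the higher gene Cspg4 averaged 13.58 in UXT KO and 12.70 in wild-type cells. The median deviation of the 8 from their wild-type means was -0.81 ± 0.06 in UXT KO libraries (mean and SD, n = 3). Of the Sertoli cell markers 20 of 30 were in the table, with 19 lower and 1 higher (13 and 1 after quantile normalization), at 16.31 to 16.77 in UXT KO and 17.46 to 17.84 in wild-type libraries.

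Fibroblast markers, 7 of 15 in the table with 6 lower and 1 higher (4 and 1 after quantile normalization), summed to 19.40 to 20.13 in UXT KO and 20.45 to 20.61 in wild-type libraries. Leydig cell markers, 4 of 12 in the table with 3 higher and 1 lower, also after quantile normalization, summed to 15.80 to 16.11 in UXT KO and 15.35 to 15.51 in wild-type libraries. Nerve and glia markers, 6 of 18 in the table, were all lower as deposited, but only 1 was called lower after quantile normalization, and 2 lower and 1 higher after median centring. Germ cell markers, 4 of 21 in the table, had 1 higher, 2 lower and 1 not called (1 higher and 1 lower after quantile normalization). A single red blood cell marker of 8 was in the table and was lower, also after quantile normalization. In bulk RNA, fewer cells of a type and less RNA per cell cannot be told apart, and the part of cell makeup in the channel results was not tested. Uxt itself was not among the usable genes of the table, which held only genes that the authors called at 1.5-fold or more. Its transcript was thus not listed there as changed, and its loss could not be checked here.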

How the data were processed

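The comparison is of 3 UXT KO with 3 wild-type RNA libraries of primary Sertoli cells, made with a stranded mRNA kit per the labels' protocols. Per the submitters' processing notes, FastQC, STAR and DESeq2 are named beside mm10, with no version or role. For the counter, annotation, use of strand and transformation, details are not given in the sources used here. A single table was deposited, of 3261 rows, and 4 rows with a repeated symbol were left out, leaving 3257 genes. Its columns, per the file headers, are a signed fold score, a log2 fold change, a p-value and an adjusted p-value for each gene, as computed by the authors. The deposited values of each library are on a log2 scale, and how the authors normalized them was not stated. No counts were used, so depth is unknown.

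Differences were fitted over all 3257 genes and 6 libraries by limma (version 3.58.1, under R 4.3.3), using its trended prior variance, and p-values were adjusted by Benjamini-Hochberg. Alternatives were other scalings, filters and moderation, a replicate block, and each library left out. Library values were given for the 6 largest falls, the 6 largest rises, the 2 genes of highest mean, the largest fold of each class and any gene not called, unless left out as below; those of Kcnmb1 and Clcn1, outside this rule, were added after their values were seen. Genes of other lists were the 3 of largest fold in each direction. Members and lists were chosen with earlier results of these data known. Positions and promoters came from RefSeq (GRCm38.p6), with all 45 genes matched by gene ID. Overlapping exons came from GENCODE M21. Values of some genes are not reported here, although they stay in the fits and counts.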

Additional observations from a re-analysis of the deposited data

How the results depend on the processing

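The main counts were 34 genes called lower and 10 called higher, with a median difference of -0.41 on the log2 scale. Quantile normalization gave 13 lower, 10 higher and a median of -0.06. Median centring of each library gave 10 lower, 13 higher and a median of -0.12. The share of called genes that were lower was then 56.5% and 43.5%, against 77.3% as deposited; over the whole table it was 52.1% and 47.9%, against 67.8%. Both scalings set a table of mostly lower genes to a common level, which by construction moves differences up. After quantile normalization the sign turned in Kcnd1 (0.041), Kcnk6 (0.14), Kcnt2 (0.09), P2rx6 (0.085) and Scn2a1 (0.0044). After median centring it turned in Kcne1 (0.18), Kcnj10 (0.17), Kcnj12 (0.17), Kcnk6 (0.01), Kcnt2 (0.024), P2rx6 (0.015) and Trpc5os (0.14), and Kcne1, Kcnj10 and Kcnj12 were then called higher. Centring adds the same amount to every difference, so these turns follow from the shift and are no separate test of direction.

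Leaving out the genes of lowest mean (the bottom 25%) left 16 lower and 5 higher, since only 21 of the 45 were then tested. Keeping only genes with a mean of at least 6, an alternative chosen after seeing the data, left 22 lower and 5 higher with a median of -0.52. Adding 16 to the unlogged values moved the median to -0.37. The lower count was 31 to 35, the higher count 9 to 10 and the median -0.44 to -0.40 when each library was left out in turn. With the replicate block the counts were 34 and 10 and the median -0.41. The replicate numbers are not said to pair the samples. Same-numbered libraries correlated at 0.177, -0.0731 and -0.00388 in their deviations from the group means. Libraries of unlike number correlated at -0.203 to 0.196, so these values cannot settle whether samples were paired. At an adjusted p under 0.01, 28 were lower and 9 higher. Without the trend the counts were 31 and 9, and robust moderation changed no call. Depth is unknown, and its part in the small differences of genes near the lowest values of the table, such as Clcn1 and Kcne1, was not tested.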
